A study of Mus musculus with 9 samples.

Results

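Transcripts of 10 genes of the BMP and TGF-beta pathway were compared in lung endothelial cells of Tie1-CR and Tie1-WT mice. The genes were chosen by symbol, as the receptor genes Eng, Acvrl1, Bmpr2 and Tgfbr2, the ligand gene Bmp6, the inhibitory Smad genes Smad6 and Smad7, and the responsive genes Id1, Id3 and Tmem100. All 10 were found among the 9277 genes of the table, each at 260.5 CPM (counted reads, scaled to the same total in every library) or more in every library, far above the level of 10 CPM that every listed gene reaches in at least 1 library. Libraries came from Tie1-CR mice (n = 5), whose receptor Tie1 resists the proteolytic cleavage that inflammation brings about. They were set against libraries from Tie1-WT mice (n = 4), which carry wild type Tie1. All 9 library names carry PBS, so both genotypes share it, and no inflammatory stimulus is analysed here. The sources used here do not give strain, sex, age, zygosity, the way the endothelial cells were isolated or the number of mice per library. The p-values therefore measure the spread between these libraries, which may be partly technical.

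BMP and TGF-beta ligands bind pairs of type I and type II serine/threonine kinase receptors, which phosphorylate signalling Smad proteins that enter the nucleus with Smad4. In endothelium, BMP9 and BMP10 act mainly through the type I receptor ALK1, encoded by Acvrl1, together with the type II receptor BMPR2 and the co-receptor endoglin, encoded by Eng. Loss of ALK1 or endoglin causes hereditary haemorrhagic telangiectasia, and loss of BMPR2 causes heritable pulmonary arterial hypertension. Id1, Id3, Smad6 and Smad7 are transcribed in answer to the pathway, and the Smad6 and Smad7 proteins feed back on it as inhibitors.

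The libraries held 38208696 to 54408116 counted reads, and levels are in CPM. Every Tie1-CR library had more Tie1 transcript, at 2329 to 2679 CPM, than any Tie1-WT library, at 2079 to 2171 CPM, and Tie1 did not pass over all genes (limma adjusted p = 0.107). This level does not check the allele, which alters cleavage of the protein. All 10 pan-endothelial markers were measured, with sums of 18558 to 19824 CPM in Tie1-CR and 17440.4 to 18878 CPM in Tie1-WT (log2 difference 0.10, two-sided exact permutation p = 0.0397, p = 0.127 adjusted over 8 marker lists). The exact permutation p of this sum was 0.0571 to 0.0857 in 8 of the 9 comparisons with 1 library left out, and 0.0179 without Tie1-WT replicate 4. Of the 10 markers 8 had log2 differences above 0 and none rose past the threshold, while Erg, an endothelial transcription factor, fell, at 37.5 ± 1.77 CPM in Tie1-CR and 50.3 ± 3.61 CPM in Tie1-WT (limma adjusted p = 0.00516). Airway markers, of which 4 of 7 were measured and 2 rose past the threshold, summed to 48.0 to 81.4 CPM in Tie1-CR and 12.5 to 38.2 CPM in Tie1-WT (exact permutation p = 0.0079, the smallest possible, p = 0.0635 after adjustment). Type 2 pneumocyte markers, of which 7 of 9 were measured, all above 0 and 1 past the threshold, summed to 491 to 902 CPM in Tie1-CR and 299 to 694 CPM in Tie1-WT (exact permutation p = 0.0714, p = 0.143 after adjustment). Of 8 macrophage and monocyte markers 2 were measured, and they lay on opposite sides of 0. Cd68 averaged 5.30 ± 1.05 CPM in Tie1-CR and 10.7 ± 1.30 CPM in Tie1-WT and fell past the threshold (limma adjusted p = 0.00640). Its Tie1-CR libraries lay under the 10 CPM that every listed gene reaches in at least 1 library. Cd68 is therefore listed only through Tie1-WT, where it is high, and its fall is not independent of that entry level. Lyz2, which type 2 cells also make, averaged 76.2 ± 21.9 CPM in Tie1-CR and 37.8 ± 21.8 CPM in Tie1-WT (limma adjusted p = 0.0669), so their sum of 60.2 to 118 CPM in Tie1-CR and 30.6 to 76.9 CPM in Tie1-WT was mostly Lyz2 (exact permutation p = 0.0476, p = 0.127 after adjustment). Summed markers of type 1 pneumocytes (5 of 7 measured), fibroblasts and mural cells (6 of 15), lymphatic endothelium (4 of 6) and platelets and erythroid cells (3 of 7) had log2 differences of -0.07, -0.14, 0.01 and 0.40 (exact permutation p = 0.381, 0.778, 0.937 and 0.389). None of 7 lymphocyte markers was among the genes analysed here. The part of these shifts in the results below was not tested, except where a fit with them is given.

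Promoter windows of the RefSeq table (GRCm38.p6, 250 bases before to 50 after the annotated start) were found for 6 of the 10 genes and searched on both strands for a pair of palindromes. GGCGCC is the core of BMP-responsive elements and GTCTAGAC is the palindromic Smad binding element. Only the Smad6 and Bmpr2 windows held a match, and they are printed here to the tenth base after the start with the match in capitals. The Smad6 stretch lies at chr9:64022050-64022309 on the minus strand, and its GTCTAGAC begins 4 bases before the start. The Bmpr2 stretch lies at chr1:59764029-59764288 on the plus strand, and its GGCGCC begins 105 bases before the start.
Smad6: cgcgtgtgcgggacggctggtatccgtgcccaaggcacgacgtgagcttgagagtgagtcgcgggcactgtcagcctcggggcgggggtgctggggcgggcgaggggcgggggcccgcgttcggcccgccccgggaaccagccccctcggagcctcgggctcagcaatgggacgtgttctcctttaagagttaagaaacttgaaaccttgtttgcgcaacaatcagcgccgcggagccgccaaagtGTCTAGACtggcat
Bmpr2: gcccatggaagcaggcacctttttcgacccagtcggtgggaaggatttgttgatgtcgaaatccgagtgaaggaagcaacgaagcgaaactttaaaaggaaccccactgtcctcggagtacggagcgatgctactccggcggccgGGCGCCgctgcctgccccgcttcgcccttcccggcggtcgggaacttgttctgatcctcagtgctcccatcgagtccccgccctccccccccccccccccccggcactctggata
Of all 32851 windows, 11.9% held GGCGCC and 0.213% held GTCTAGAC. The windows of Eng, Id3, Tgfbr2 and Bmp6 held neither motif. Those of Bmpr2, Id3 and Bmp6 lie wholly inside the genes as placed by GENCODE M21, which gives them earlier starts. The Bmpr2 gene starts there at 59763400, so its GGCGCC lies after that start.

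The 10 genes spanned a wide range of levels in lung endothelium. Divided by the merged exon length of GENCODE M21, Tmem100 stood highest, at 1079 ± 89.4 CPM per kb in Tie1-CR and 972 ± 75.9 CPM per kb in Tie1-WT (SD, n = 5 and n = 4). Acvrl1 followed, at 1016 ± 43.2 CPM per kb in Tie1-CR and 866 ± 39.9 CPM per kb in Tie1-WT. Eng, Id3, Smad6 and Id1 came next, between 471 and 683 CPM per kb in Tie1-CR and between 406 and 593 CPM per kb in Tie1-WT. Then came Bmp6, at 283 ± 17.6 CPM per kb in Tie1-CR and 265 ± 7.85 CPM per kb in Tie1-WT, and Smad7, at 155 ± 12.3 CPM per kb in Tie1-CR and 122 ± 5.70 CPM per kb in Tie1-WT. Tgfbr2, at 34.2 ± 2.14 CPM per kb in Tie1-CR and 35.2 ± 2.33 CPM per kb in Tie1-WT, and Bmpr2, at 32.8 ± 1.04 CPM per kb in Tie1-CR and 29.7 ± 1.75 CPM per kb in Tie1-WT, stood lowest. The order of neighbours held in all 9 libraries for Acvrl1 over Eng, Id1 over Bmp6, Bmp6 over Smad7 and Smad7 over Tgfbr2. It varied between libraries for Tmem100 over Acvrl1, Eng over Id3 and Tgfbr2 over Bmpr2 (7 of 9 each), Smad6 over Id1 (8 of 9) and Id3 over Smad6 (5 of 9). Merged exons count every annotated isoform, so isoform use affects this scale (Bmpr2 has 17983 bases of merged exon and Smad6 3205).

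**Figure D1:**
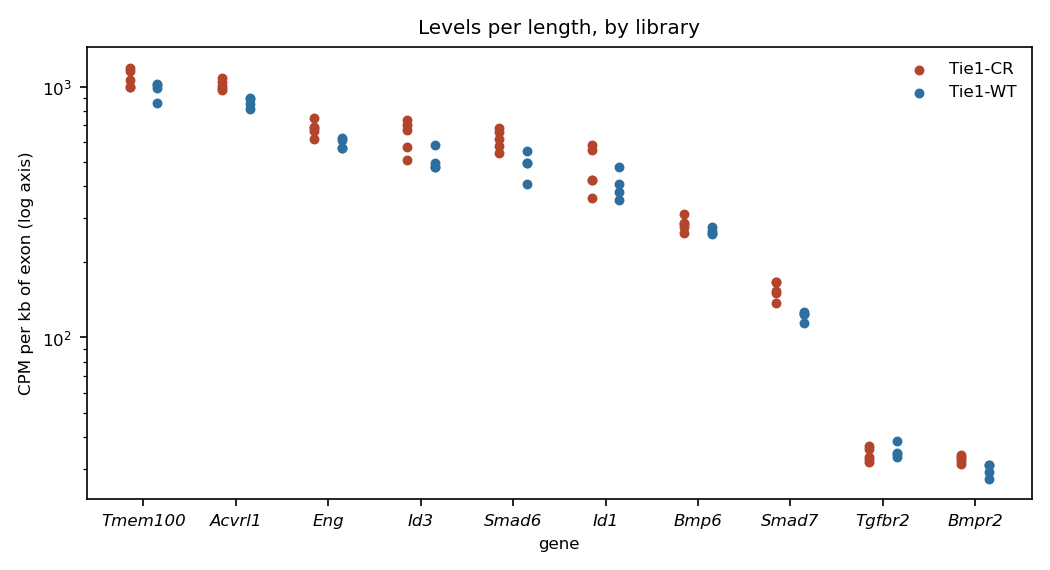
Levels of the 10 genes in CPM per kb of merged exon (vertical log axis), with 1 point per library, Tie1-CR left and Tie1-WT right of each gene. Tmem100 and Acvrl1 stand highest and Tgfbr2 and Bmpr2 lowest, at 34.6 and 31.4 CPM per kb over all libraries.

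Between the genotypes, 1 of the 10 genes passed the test over all genes. Smad7 rose in Tie1-CR, 1.27-fold, and the other 9 did not pass (limma on log2(CPM + 1), Benjamini-Hochberg adjusted p below 0.05). Over all genes 4.05% passed, 1.28% higher and 2.77% lower in Tie1-CR. With TMM scaling, which matches the libraries on their less variable genes, the same number passed but 51.6% of them were lower, against 68.4% here. The log2 difference was above 0 for 9 of the 10 genes, against 41.5% of all genes, and its median over the 10 was 0.20, against -0.03 over all genes. Among 702 genes averaging at least 250 CPM, a level that all 10 genes reach and that was set after seeing the values, 60.8% lay above 0 and the median was 0.04. An unadjusted limma p below 0.05 with a higher level in Tie1-CR was found for 6 of the 10 genes, Smad7, Smad6, Acvrl1, Id3, Eng and Bmpr2, against 8.27% of all genes and 19.4% of those averaging at least 250 CPM. Every Tie1-CR library lay above every Tie1-WT library for 3 of the 10, Acvrl1, Bmpr2 and Smad7, against 3.74% of all genes and 9.97% of those averaging at least 250 CPM. None of the 10 had every Tie1-CR library below every Tie1-WT library, against 6.74% of all genes. The 10 genes were chosen with earlier results of these data known, and all were measured in the same libraries. These shares are therefore descriptive and do not test the 10 genes as a set. A different share of endothelial cells in a preparation and a different RNA level per cell cannot be told apart in these bulk libraries.

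**Figure D2:**
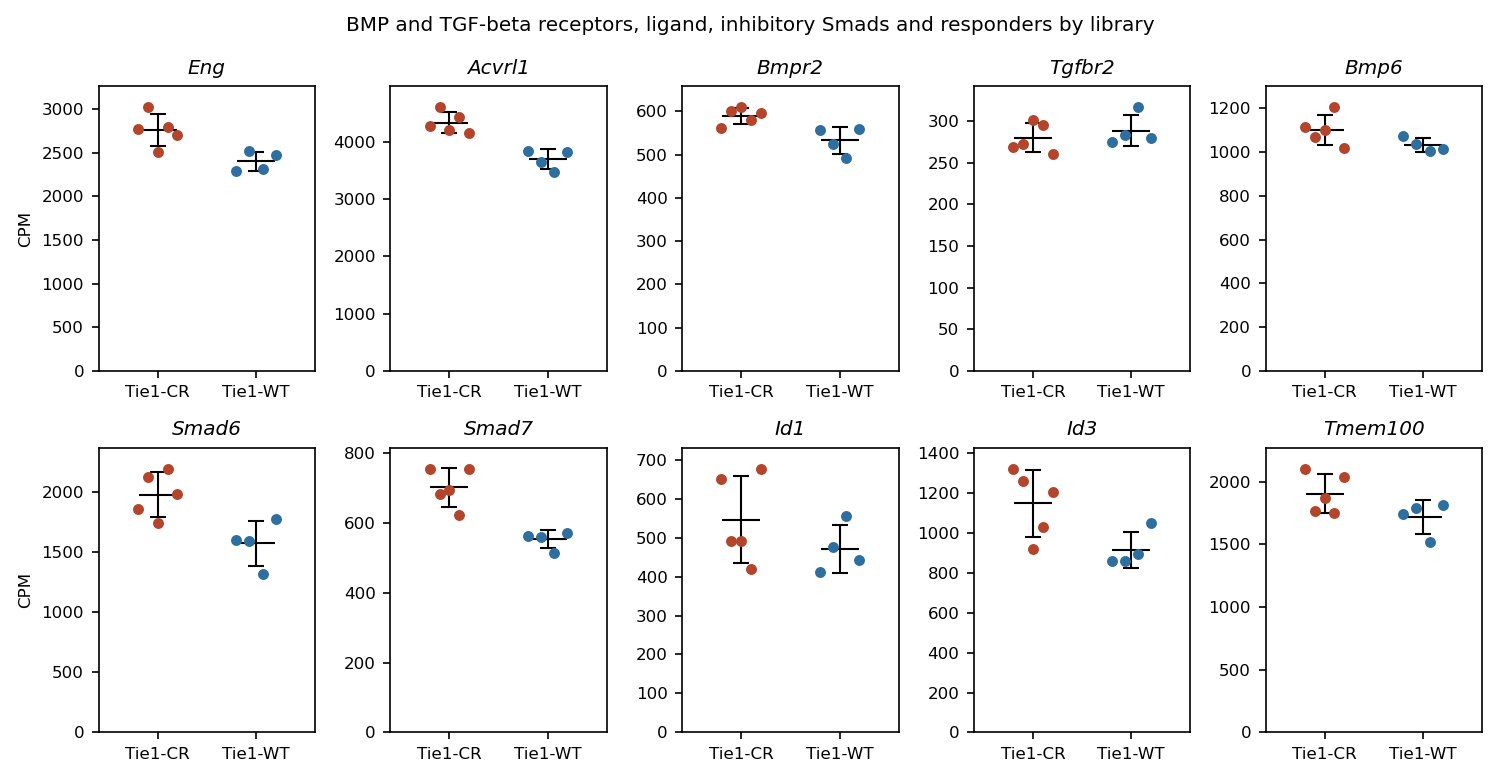
CPM of each gene by library, with 1 point per library and the group mean and SD as black bars (Tie1-CR n = 5, Tie1-WT n = 4, each axis from 0). For Acvrl1, Bmpr2 and Smad7 the groups do not overlap, while for the other 7 genes they do.

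Among the receptors, Acvrl1 encodes ALK1, the type I receptor for BMP9 and BMP10 (chromosome 15, 101128522 to 101145336 in GRCm38). It measured 4271, 4600.0, 4201, 4433 and 4151 CPM in Tie1-CR replicates 1 to 5, against 3835, 3636, 3477 and 3821 CPM in Tie1-WT replicates 1 to 4. The lowest Tie1-CR library thus lay above the highest Tie1-WT library. The means were 4331 ± 184 CPM in Tie1-CR and 3692 ± 170.0 CPM in Tie1-WT (SD), a 1.17-fold difference (95% confidence interval 1.06 to 1.30) that did not pass (limma adjusted p = 0.0733). Only 7 genes of the table had a higher mean CPM. Its exons share 127 bases with the antisense gene Gm16031, which was not analysed here. With quantile normalization, which gives all libraries the same distribution, the log2 difference was 0.14, against 0.23 here.

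Eng encodes endoglin, the co-receptor that presents BMP9 to ALK1 (chromosome 2, 32646595 to 32682669). Tie1-CR replicates 1 to 5 had 2778, 3024, 2514, 2801 and 2701 CPM, against 2297, 2518, 2312 and 2478 CPM in Tie1-WT replicates 1 to 4. The groups overlapped by a single library, since Tie1-CR replicate 3 lay just under Tie1-WT replicate 2. The fold was 1.15 (95% confidence interval 1.04 to 1.28, limma adjusted p = 0.116). Its exons share 61 bases with those of Fpgs on the opposite strand, which measured 57.3 ± 8.98 CPM in Tie1-CR and 57.0 ± 1.36 CPM in Tie1-WT.

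Bmpr2 encodes the type II receptor of the complex (chromosome 1, 59763400 to 59879014). Its RefSeq promoter window, which lies inside this span, is the one with GGCGCC above. It measured 563, 602, 609.9, 580.4 and 596 CPM in Tie1-CR replicates 1 to 5, against 557, 524, 493 and 559.6 CPM in Tie1-WT replicates 1 to 4. No Tie1-CR library fell among the Tie1-WT libraries, though the gap between the nearest was small. The fold was 1.11 (95% confidence interval 1.02 to 1.20, limma adjusted p = 0.131).

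Tgfbr2 encodes the type II receptor for TGF-beta itself (chromosome 9, 116084293 to 116175360). Tie1-CR replicates 1 to 5 had 269, 273, 301, 295 and 260.5 CPM, against 274, 283, 316 and 279.8 CPM in Tie1-WT replicates 1 to 4. Libraries of the genotypes were interleaved. It was the only one of the 10 genes with a log2 difference below 0, at -0.04 (limma adjusted p = 0.703), and the interval ran from 0.884-fold to 1.06-fold. Without Tie1-WT replicate 3 the log2 difference was 0.0011, so its sign rests on that library.

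Bmp6 encodes a secreted BMP that endothelial cells make, known in liver as the signal that raises hepcidin (chromosome 13, 38345107 to 38500302). Tie1-CR replicates 1 to 5 had 1117, 1071, 1101, 1206 and 1019 CPM, against 1075, 1037, 1006 and 1015 CPM in Tie1-WT replicates 1 to 4. Most libraries of both genotypes lay close together, with Tie1-CR replicate 4 the highest. The fold was 1.07 (95% confidence interval 0.975 to 1.17, limma adjusted p = 0.379), and with quantile normalization the log2 difference was 0.04, against 0.09 here. Its exons share 224 bases with those of Txndc5 on the opposite strand (234 ± 14.9 CPM in Tie1-CR and 219 ± 10.7 CPM in Tie1-WT), and whether reads were counted by strand is not given in the sources used here.

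Smad7, which blocks type I receptors of both branches and recruits ubiquitin ligases to them, gave the clearest difference (chromosome 18, 75367529 to 75395935). It measured 754, 681, 694, 622.5 and 755 CPM in Tie1-CR replicates 1 to 5, against 563, 560.4, 514 and 571 CPM in Tie1-WT replicates 1 to 4. Every Tie1-CR library was higher than every Tie1-WT library, with Tie1-CR replicate 4 nearest to them. The means were 701 ± 55.6 CPM in Tie1-CR and 552 ± 25.8 CPM in Tie1-WT (SD), a 1.27-fold difference (log2 0.34, SE 0.07, 95% confidence interval 1.15 to 1.40 as a fold). It passed over all genes (limma adjusted p = 0.0205) and ranked 127 of 9277 by p. The call ended without Tie1-WT replicate 1 (log2 0.35, adjusted p = 0.0675), Tie1-WT replicate 2 (0.35, adjusted p = 0.0560) or Tie1-WT replicate 3 (0.31, adjusted p = 0.0565), in fits where 60, 135 and 154 genes of the whole table were called, against 376 with all libraries.

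Smad6, the inhibitor that acts mainly on BMP signals, had a difference of like size with more spread (chromosome 9, 63953076 to 64022059), and its promoter window is the one with GTCTAGAC above. Tie1-CR replicates 1 to 5 had 1853, 2117, 1738, 2191 and 1979.8 CPM, against 1597, 1588, 1316 and 1776 CPM in Tie1-WT replicates 1 to 4. Only Tie1-CR replicate 3 lay inside the Tie1-WT range, under Tie1-WT replicate 4. The means were 1976 ± 186 CPM in Tie1-CR and 1569 ± 190.0 CPM in Tie1-WT (SD), a 1.26-fold difference (95% confidence interval 1.09 to 1.46) that did not pass (limma adjusted p = 0.0729).

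Id1 and Id3 encode inhibitors of basic helix-loop-helix factors and are standard readouts of BMP receptor activity. Id3 (chromosome 4, 136143497 to 136145755) measured 1322, 1261, 917, 1030.1 and 1207 CPM in Tie1-CR replicates 1 to 5, against 858, 857, 893 and 1050.3 CPM in Tie1-WT replicates 1 to 4. Tie1-CR replicates 1, 2 and 5 stood above all Tie1-WT libraries, and Tie1-CR replicates 3 and 4 lay among them. The fold was 1.25 (95% confidence interval 1.06 to 1.47, limma adjusted p = 0.115). Id1 (chromosome 2, 152736251 to 152737410) measured 651, 492, 491, 419 and 677 CPM in Tie1-CR replicates 1 to 5, against 411, 475, 556 and 442 CPM in Tie1-WT replicates 1 to 4. Here Tie1-CR replicates 1 and 5 stood apart on the high side while the other Tie1-CR libraries fell inside the Tie1-WT range. The fold was 1.15 (95% confidence interval 0.928 to 1.42, limma adjusted p = 0.424), and Id1 varied most among the 10 genes, with a coefficient of variation of 20.5% in Tie1-CR and 13.2% in Tie1-WT. Its log2 difference of 0.20 was 0.13 when Tie1-CR replicate 1 was left out and 0.11 when replicate 5 of Tie1-CR was left out.

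Tmem100 encodes a small membrane protein of endothelium that lies downstream of ALK1 in mouse development (chromosome 11, 90030348 to 90036508). Tie1-CR replicates 1 to 5 had 2105, 1768, 1869.7, 1754 and 2035 CPM, against 1744, 1789, 1521 and 1816 CPM in Tie1-WT replicates 1 to 4. Tie1-CR replicates 1, 3 and 5 were above every Tie1-WT library and the other Tie1-CR libraries were not. The fold was 1.11 (95% confidence interval 0.984 to 1.25, limma adjusted p = 0.286), and the log2 difference of 0.15 was 0.09 without Tie1-WT replicate 3.

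The genes did not rank the libraries alike. Tie1-CR replicates 1 and 5 were the 2 highest Tie1-CR libraries for Smad7, Id1 and Tmem100, while Tie1-CR replicate 2 was highest for Eng and Acvrl1 and Tie1-CR replicate 4 for Smad6 and Bmp6. In Tie1-WT, replicate 3 was lowest for 6 of the 10 genes, Acvrl1, Bmpr2, Smad6, Smad7, Tmem100 and Bmp6, and highest for Tgfbr2 and Id1. That library had the lowest pan-endothelial marker sum of the 4 (17440.4 CPM) and the highest lymphatic marker sum, at 1651 CPM against 1087 to 1420 CPM in the other Tie1-WT libraries. Tie1-WT replicate 2 had nearly the same pan-endothelial sum (17486 CPM) and was lowest only for Id3. The part of these sums in the gene levels was not tested. Coefficients of variation within a genotype ran from 2.96% for Bmp6 in Tie1-WT to the 20.5% of Id1 in Tie1-CR.

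**Figure D3:**
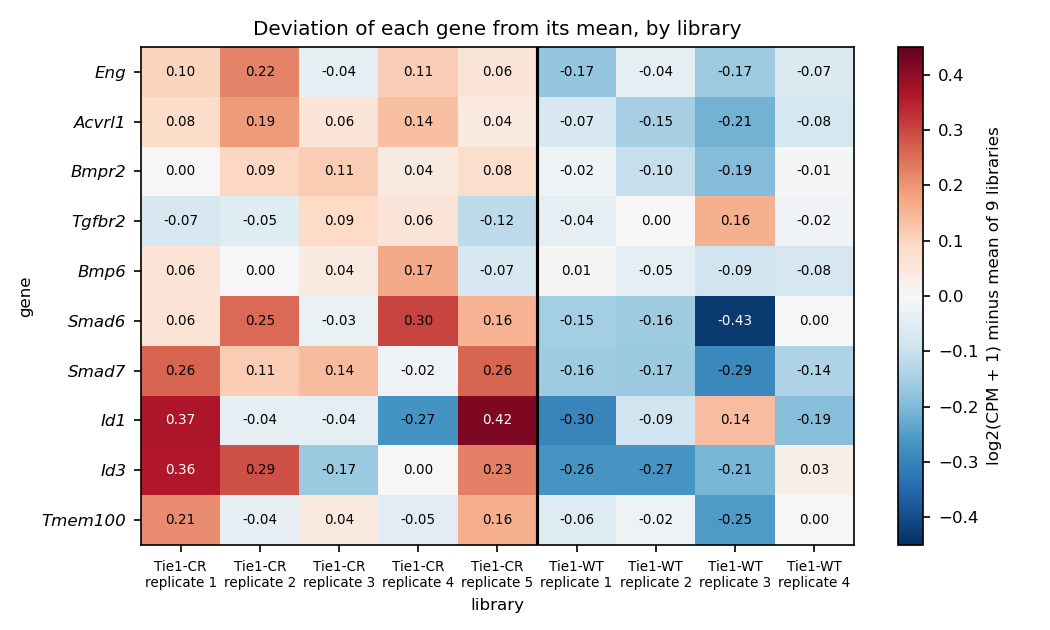
Deviation of each gene from its mean over the 9 libraries, on log2(CPM + 1), with Tie1-CR libraries left of the black line and Tie1-WT libraries right of it. Id1 reaches 0.42 in Tie1-CR replicate 5 and Smad6 reaches -0.43 in Tie1-WT replicate 3.

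The fit was repeated with each library scaled to the pan-endothelial marker sum, an alternative chosen after seeing the data, although that sum did not pass after adjustment and 1 of its markers fell. This moved the median of all genes to -0.13. On that scale Smad7 was at 0.24 (limma adjusted p = 0.0534), Smad6 at 0.23, Id3 at 0.22, Acvrl1 at 0.13, Eng at 0.10, Id1 at 0.10, Bmpr2 at 0.05, Tmem100 at 0.05 and Bmp6 at -0.01. All 9 of these values lay above that median of -0.13, and Tgfbr2, at -0.15, lay below it. With the summed type 2 pneumocyte and airway markers as a covariate, the log2 difference was 0.30 for Smad7 (limma adjusted p = 0.315). It was 0.22 for Smad6, 0.26 for Id3, 0.23 for Acvrl1, 0.17 for Eng, 0.09 for Bmpr2 and 0.08 for Tmem100. For Id1 it was 0.20, for Bmp6 0.14 (0.09 without the covariate) and for Tgfbr2 -0.0069. In that fit 9 genes of the whole table passed, against 376 without the covariate, and none of the 10 genes and none of the other pathway genes were among them. The airway and type 2 sums were themselves higher on average in Tie1-CR (log2 differences 1.22 and 0.685). The covariate thus partly overlaps with genotype, and calls lost in this fit cannot be assigned to either of them.

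**Figure D4:**
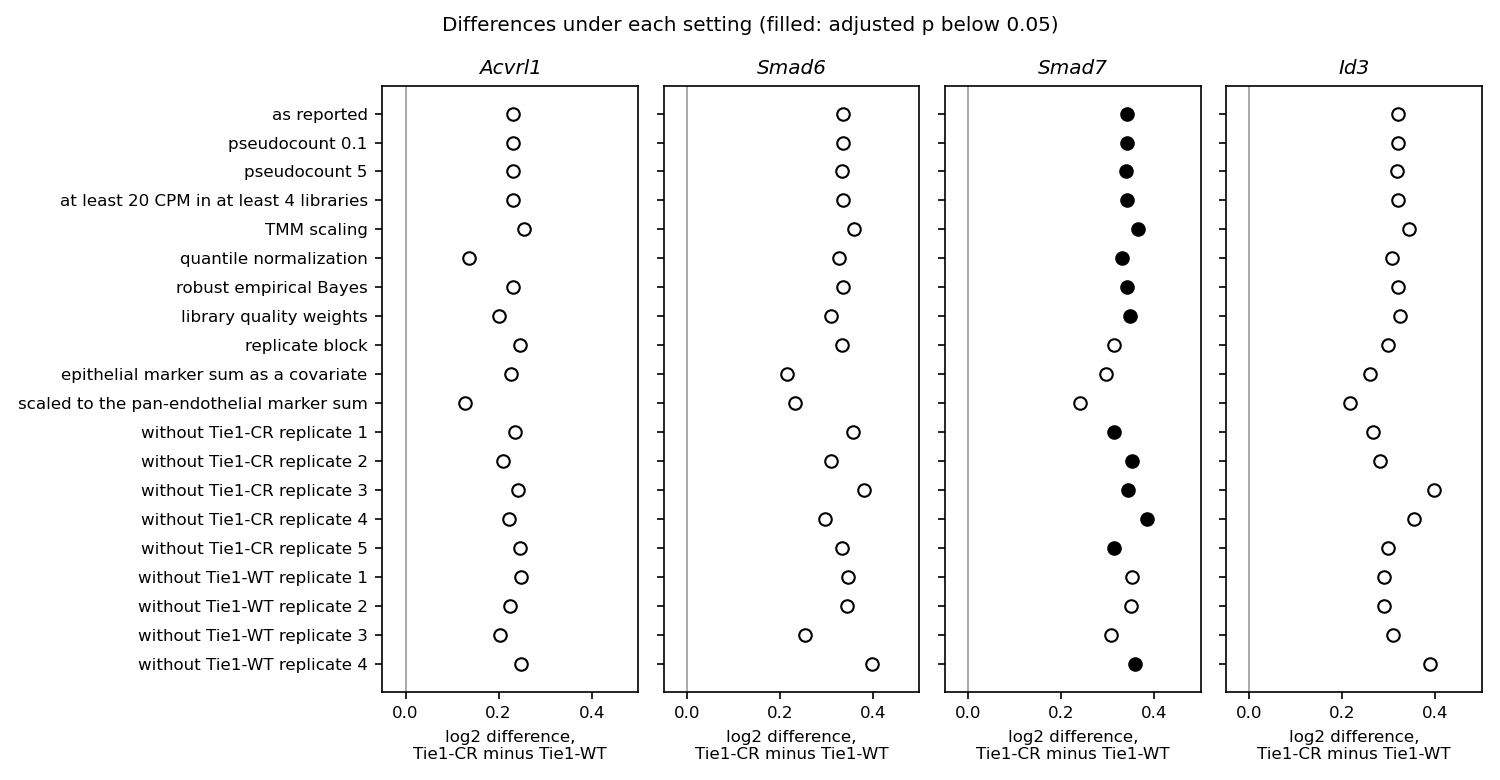
Log2 differences (Tie1-CR minus Tie1-WT, horizontal axis) of Acvrl1, Smad6, Smad7 and Id3 under each setting (rows), filled where the adjusted p was below 0.05. All points lie above 0, and only Smad7 has filled points.

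Of 73 other genes of the pathway, 49 were measured, and 1 of them rose and 4 fell in Tie1-CR, where 1.28% of all genes were called higher and 2.77% lower. Their median log2 difference was -0.04, against -0.03 over all genes, and 42.9% lay above 0, against 41.5% of all genes. Id4, among the genes that fell, is listed only through its Tie1-WT libraries, as described below. None of the 6 measured ligand genes of 13 passed. Tgfb1, the main TGF-beta isoform, measured 169 ± 8.55 CPM in Tie1-CR and 186 ± 11.1 CPM in Tie1-WT (limma adjusted p = 0.180). Bmp4 measured 32.2 ± 6.74 CPM in Tie1-CR and 33.8 ± 1.69 CPM in Tie1-WT. Gdf15, a stress-induced member of the family, measured 4.12 ± 1.42 CPM in Tie1-CR and 8.73 ± 6.48 CPM in Tie1-WT (limma adjusted p = 0.209), with Tie1-WT replicate 3 alone at 18.4 CPM. Only that library reached 10 CPM, so Gdf15 is listed through it alone. Bmp10, Gdf2 (the gene of BMP9) and the remaining ligand genes were not analysed here.

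None of the 6 measured receptor genes of 8 passed either. The co-receptor gene Tgfbr3 measured 311 ± 36.0 CPM in Tie1-CR and 305 ± 25.8 CPM in Tie1-WT. The activin type II receptor genes Acvr2a and Acvr2b measured 62.3 ± 4.21 and 35.6 ± 4.62 CPM in Tie1-CR, against 66.7 ± 4.48 and 31.0 ± 2.42 CPM in Tie1-WT. Acvr1b, the activin type I receptor gene, measured 45.6 ± 3.70 CPM in Tie1-CR and 40.7 ± 1.91 CPM in Tie1-WT (limma adjusted p = 0.177). The 5 measured signalling Smad genes of 6 all had log2 differences below 0, from -0.14 to -0.05, and none passed. Smad1 and Smad5, which carry BMP signals, measured 128 ± 9.01 and 91.2 ± 6.13 CPM in Tie1-CR, against 138 ± 10.9 and 98.8 ± 6.64 CPM in Tie1-WT (limma adjusted p = 0.367 and 0.301). The shared partner Smad4 measured 179.8 ± 6.12 CPM in Tie1-CR and 186 ± 7.71 CPM in Tie1-WT.

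Among 20 measured modulators of 30, Bambi fell and the others did not pass. Bambi encodes a pseudoreceptor that lacks a kinase domain and dampens the pathway. It measured 27.9, 33.9, 29.9, 29.4 and 29.3 CPM in Tie1-CR replicates 1 to 5, against 34.6, 40.6, 38.4 and 34.2 CPM in Tie1-WT replicates 1 to 4. The groups did not overlap, with a log2 difference of -0.29 (limma adjusted p = 0.0440). Among the settings that ended the call were TMM scaling (-0.26, adjusted p = 0.0592), quantile normalization (-0.25, adjusted p = 0.0658) and leaving out any 1 library except Tie1-CR replicate 2 or Tie1-WT replicate 4 (adjusted p = 0.0704 to 0.116). Ski, a corepressor of Smads, measured 315 ± 39.6 CPM in Tie1-CR and 375 ± 27.6 CPM in Tie1-WT (limma adjusted p = 0.120). Fkbp1a, which holds type I receptors inactive, measured 641 ± 56.2 CPM in Tie1-CR and 703 ± 40.7 CPM in Tie1-WT. Lrg1, which modulates endothelial TGF-beta signalling, measured 188 ± 43.6 CPM in Tie1-CR and 156 ± 67.5 CPM in Tie1-WT, with Tie1-WT replicate 3 at 257 CPM.

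Of 12 measured genes among 16 other targets, Hey1 rose and Junb, Cyr61 and Id4 fell, where 4.05% of all genes passed in either direction. Hey1, which Notch and ALK1 both induce, measured 571, 413, 429.9, 563 and 497 CPM in Tie1-CR replicates 1 to 5, against 348, 281, 335 and 404 CPM in Tie1-WT replicates 1 to 4 (1.44-fold, limma adjusted p = 0.0353). Id4, a relative of Id1 at a far lower level, had 7.01 to 8.66 CPM in Tie1-CR and 9.38 to 14.6 CPM in Tie1-WT, with a log2 difference of -0.64 (limma adjusted p = 0.0158). No Tie1-CR library of Id4 reached the 10 CPM that every listed gene reaches in at least 1 library. Id4 is therefore listed only through Tie1-WT, where it is high, and its fall is not independent of that entry level. Junb, an AP-1 subunit that many growth signals induce, had 991 to 1421 CPM in Tie1-CR and 1889 to 2303 CPM in Tie1-WT (log2 -0.80, limma adjusted p = 0.00770). Cyr61, a matricellular gene also induced by YAP, had 158 to 302 CPM in Tie1-CR and 325 to 545 CPM in Tie1-WT (log2 -0.95, limma adjusted p = 0.0241). All 4 of these had groups that did not overlap, though Id4 is listed only through its Tie1-WT libraries. The gap junction gene Gja4, a target of ALK1 in arterial endothelium, measured 482 ± 89.0 CPM in Tie1-CR and 353 ± 93.6 CPM in Tie1-WT (limma adjusted p = 0.130). Without Tie1-WT replicate 4, its highest Tie1-WT library, Gja4 passed (log2 0.62, limma adjusted p = 0.0442).

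The Hey1 call ended when 1 of Tie1-CR replicates 1, 4 and 5 or of Tie1-WT replicates 1 to 3 was left out (limma adjusted p = 0.0568 to 0.105). That of Cyr61 ended when Tie1-CR replicate 4 or 1 of Tie1-WT replicates 1 to 3 was left out (limma adjusted p = 0.0544 to 0.0911). That of Id4 ended when Tie1-WT replicate 1 or 2 was left out (limma adjusted p = 0.0676 and 0.0550), and Junb passed with each library left out. With the epithelial covariate none of these 4 passed, nor did Bambi (limma adjusted p = 0.168 to 0.375 over the 5 genes).

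**Figure D5:**
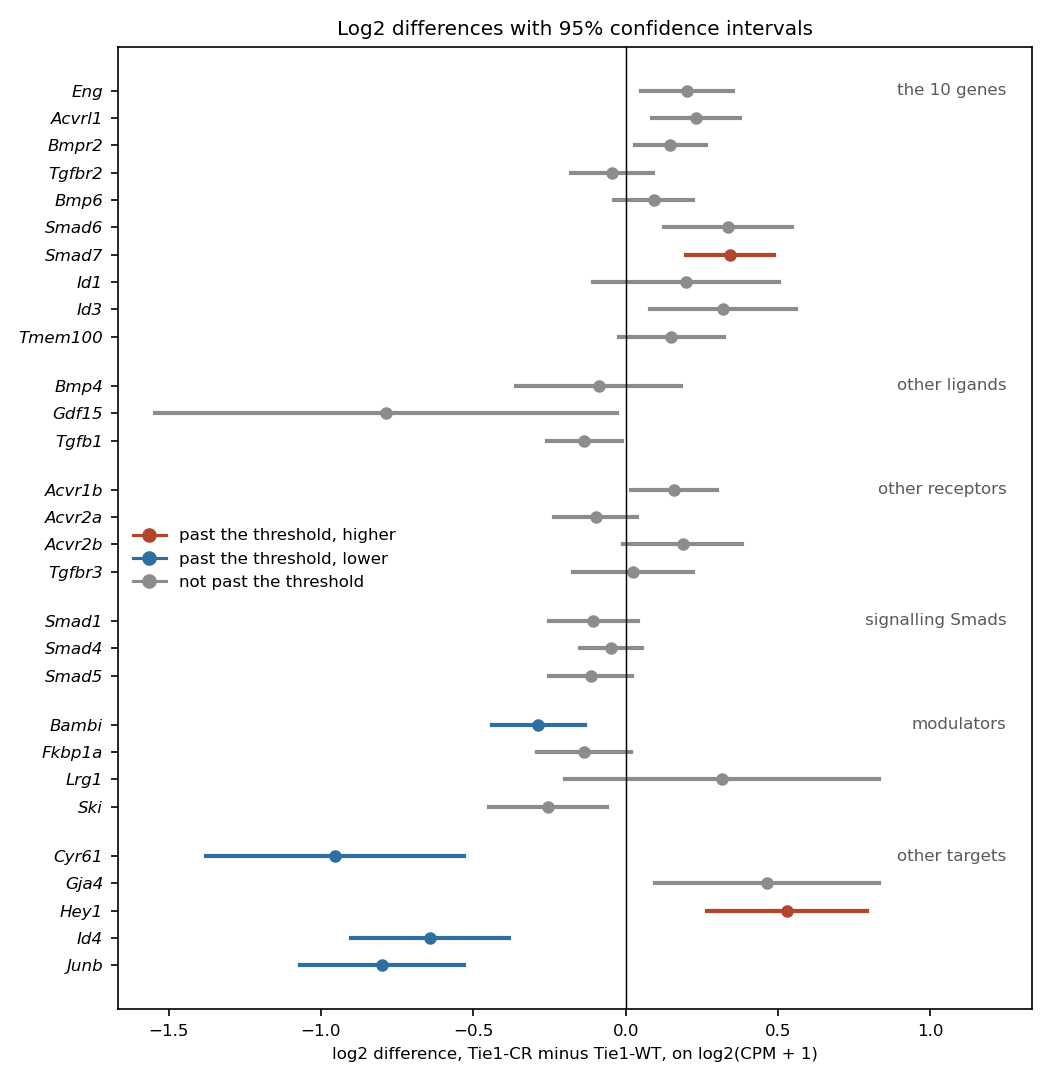
Log2 differences (Tie1-CR minus Tie1-WT, horizontal axis) with 95% confidence intervals not adjusted for many genes, for the 10 genes and the named genes of each pathway list. Smad7 and Hey1 passed as higher, Bambi, Cyr61, Id4 and Junb as lower, and the remaining genes did not pass.

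By the root mean square difference of log2 values over the 9 libraries, each centred on its own mean, the genes most like Id1 were Mpp3 (0.08), Hes1 (0.11) and Bcl3 (0.11), while Id1 itself varied by 0.24 around its mean. Hes1, a Notch-responsive repressor, measured 189 CPM in Tie1-CR and 162 CPM in Tie1-WT on average. The genes most like Bmp6 were Ap2a1, Gga2 and Tor3a, each at 0.04, where Bmp6 itself varied by 0.08. None of these 6 genes passed between the genotypes, which is no separate result, since they were picked for likeness to genes that did not pass.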

How the data were processed

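Per the labels' protocols, RNA came from PicoPure extraction, and SMARTer Ultra Low chemistry was used for cDNA libraries. STAR 2.7 and the builds GRCm38.p6 and mm10 are named in the submitters' processing notes while the sources used here give no counting tool, annotation, strand setting or gene filter. The authors deposited 1 table under the name TPM, but its values are CPM and not per length. All equal whole reads of their library within 0.01 reads, and 98.3% to 98.6% of counted reads fall in it. It holds genes reaching at least 10.0 CPM in some library. Copies made in cDNA amplification are not independent molecules.

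Values were used as log2(CPM + 1), which understates changes of low genes, and tested two-sided in R 4.3.3 by limma 3.58.1 with a mean-variance trend, with p-values adjusted over 9277 genes at a threshold of 0.05. The fit was run on simulated data, with noise drawn separately for each gene and planted differences larger than those of the 10 genes. That run does not measure how the fit performs on correlated genes or on differences as small as theirs. No 2 libraries agreed within counting error (lowest chi-square per degree of freedom 21.4). Marker sums were compared by exact permutation of libraries. Lengths and positions came from GENCODE M21 (GRCm38), promoters from RefSeq (GRCm38.p6), figures from matplotlib 3.10.9.

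The 10 genes, the pathway and marker lists and the tests were chosen with earlier results of these data known. Named pathway genes are those past the threshold, the 2 highest per kb and the 2 with the smallest p of each list; likeness was computed for Id1 and Bmp6. Ccn1 is listed as Cyr61. Alternatives covered pseudocount, filter, scaling, variance model, replicate block, an epithelial covariate and each library left out; scaling to pan-endothelial markers was added after seeing the data.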

Additional observations from a re-analysis of the deposited data

Results flagged for a closer look

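A single library stood far from the rest of its group for 4 genes, all of them other pathway genes and none of the 10 genes described first, among 58 groups of libraries examined. Chance flags about 1 group in 20 by this measure. Tie1-WT replicate 3 was high for Gdf15, at 18.4 CPM against 4.56 to 6.55 CPM in the other Tie1-WT libraries, for Lrg1, at 257 CPM against 112 to 131 CPM, and for Smad1, at 154 CPM against 131 to 134 CPM. Gdf15 is listed only because that library reached 10 CPM. Tie1-WT replicate 2 was high for Smad4, at 198 CPM against 182 to 184 CPM.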

How the results depend on the processing

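Smad7 passed with pseudocounts of 0.1 and 5, a filter of 20 CPM in at least 4 libraries, TMM scaling, quantile normalization, robust empirical Bayes and library weights. No member genes were called (0 of 10) with the replicate block, the epithelial covariate or pan-endothelial scaling; with 1 library left out the number was 0 to 1. Over all genes, 661 were called with library weights, 9 with the epithelial covariate, 1570 with pan-endothelial scaling, and 60 to 355 with 1 library left out, lowest without Tie1-WT replicate 1. Other pathway genes called were 0 of 49 with the covariate, 11 with pan-endothelial scaling, and 1 to 8 with 1 library left out. The cause was not tested. Replicate numbers showed no pairing of the libraries: deviations of same-numbered libraries correlated at -0.14 to 0.19, and 2 of 8 libraries correlated best with their own number. A pairing that leaves little trace over all genes could go unseen by this check. The replicate block in effect drops Tie1-CR replicate 5, since no Tie1-WT library shares its number. It is not read as pairing, since the labels do not say that the numbers pair libraries. With it 183 genes were called in all (38 higher, 145 lower), and Smad7 was at 0.31 log2 (limma adjusted p = 0.0802). With it Bambi no longer passed (-0.28, limma adjusted p = 0.0694) and Gja4 passed (0.52, limma adjusted p = 0.0208).

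The sign turned for Tgfbr2 without Tie1-WT replicate 3 (0.0011, range -0.072 to 0.0011 with 1 library left out) and for Bmp6 with pan-endothelial scaling (-0.0097). Tgfbr3, at 0.02 log2, was at -0.058 with the epithelial covariate, at -0.078 with pan-endothelial scaling, and between -0.030 and 0.094 with 1 library left out. None of these passed in any fit. Marker sums turned sign with 1 library left out for fibroblast and mural markers (-0.14 log2, range -0.36 to 0.10), lymphatic markers (0.01, range -0.085 to 0.12) and platelet and erythroid markers (0.40, range -0.0033 to 0.63), none past exact permutation. Among the 10 genes, 96 of 100 values under the 10 other settings kept their direction and side of the threshold, and 86 of 90 with 1 library left out. Most of these values belong to genes that did not pass to begin with, so these counts do not measure how stable a call is. Smad7, the only call among them, passed in 7 of the 10 other settings and in 6 of the 9 fits with 1 library left out. Planned edgeR and DESeq2 fits on reads worked back from the CPM values were not run. A setting that leaves out a library also leaves fewer libraries to estimate the spread.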
